A study of Mus musculus with 2 samples.

Results

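The downstream flank of Igh, the immunoglobulin heavy chain locus of the mouse, is the stretch of chromosome 12 beyond the last constant gene, on the side of Tmem121 and outside the antibody genes. It was probed by 16 HindIII fragments numbered 1 to 20, 8 with forward and 8 with reverse primers, at chr12:114339456-114420752 (mm9), a span of 81.3 kb of which 93.8% lay in probed fragments. Contacts of the flank were taken as all forward-reverse pairs with midpoints at least 10 kb apart in which 1 fragment was numbered 1 to 20 and the other was numbered 1 to 20 or 36 and above. This rule gave 1485 pairs of 10584 in all, or of the 10415 at least 10 kb apart. Of these, 45 lay inside the flank and 1440 crossed the 3′ end of the locus to 180 partner fragments. The rule used position and no measured contact.

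Chromatin contacts were measured by 5C, in which crosslinked chromatin is cut with HindIII and ligated, and junctions between chosen fragments are amplified with forward and reverse primers and counted by sequencing. Each junction joins a forward to a reverse fragment, so 2 forward or 2 reverse fragments are never read together. The cells were B cells from C57Bl/6 spleens, purified as CD43- cells on magnetic beads and kept in culture with LPS and IL4 (10 ng/ml) for 40 hours. LPS with IL4 activates B cells and induces switching to IgG1 and IgE. The libraries form 1 group of 2 replicates, named biological in the series description. No other condition was analysed here, so the comparisons below are between places in the locus. 5C reads DNA contacts and holds no RNA, so the labelled cell type could not be checked against marker genes.

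In the RefSeq gene table of another assembly, GRCm38.p6, the order along the chromosome is Mta1, Crip2, Crip1, Tedc1, Tmem121 and then the constant genes from Igha to Ighm. Mta1 encodes a subunit of a chromatin-remodelling and deacetylase complex, and Crip1 and Crip2 encode LIM domain proteins. Between Igha and Tmem121 lie the enhancers of the 3′ regulatory region, which act on class switching and on heavy chain expression, and beyond it a cluster of CTCF sites that has been described as a boundary of the locus. The other end of the probed span holds the V segments, which lie far from the constant genes on the linear chromosome. The table served for gene order only. Its coordinates were not used, and no fragment was placed on a gene, an enhancer or a CTCF site.

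The 2 libraries held 14503618 and 17658603 counts in replicates 1 and 2. Inside contacts took 162673 (1.12%) and 203919 (1.15%) of them, and crossing contacts took 177941 (1.23%) and 167171 (0.947%). The median inside pair held 1843 counts (95% exact Poisson interval 1760 to 1929) and 2050 (1962 to 2141), and the median crossing pair held 60.5 (46.2 to 77.8) and 63 (48.4 to 80.6). Such intervals cover counting error only, since PCR products without molecular identifiers are not independent molecules. All 45 inside pairs and 1433 of 1440 crossing pairs (99.5%) had a count above 0 in both replicates, and no crossing pair was at 0 in both. Detection therefore separated few members, and the levels carry the description that follows.

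Inside the flank, counts ranged from 248 to 52117 in replicate 1 and from 306 to 79245 in replicate 2. The same pairs were high and low in both libraries. The share of counts of a pair differed more than 2-fold between replicates for 2.22% of the 45 inside pairs, against 30.8% of the 1436 crossing pairs and 45.2% of the 10067 pairs of the whole map that had a count above 0 in replicate 1. The Spearman correlation between replicates of the distance-adjusted levels defined below was 0.956 over the 45 inside pairs, 0.707 over the 1440 crossing pairs and 0.753 over all pairs. These are descriptions across pairs that share fragments and libraries.

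The highest inside count belonged to adjacent fragments, forward 3 (chr12:114341252-114353715) and reverse 4 (chr12:114353716-114363543), whose midpoints lie 11.1 kb apart because both fragments are long. That pair held 52117 and 79245 counts. The farther partners of forward 3 showed no smooth decline. Reverse 7, 20.7 kb away, gave 6524 and 6147 counts, and reverse 10, 33.98 kb away, gave 9367 and 9791. Reverse 12, at 44.1 kb, gave 4923 and 6226, and reverse 19, at 61.1 kb, gave 801 and 634. Thus reverse 10, a fragment of 11365 bp, exceeded the nearer reverse 7, of 1562 bp, and reverse 19, of 857 bp, was the lowest in both replicates.

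Reverse 1, reverse 7 and reverse 19, the 3 shortest reverse fragments of the flank, were low with most inside partners. With forward 6, reverse 1 gave 485 and 663 counts at 25.7 kb and reverse 19 gave 341 and 326 at 42.6 kb. With forward 9, reverse 19 gave 329 and 422 at 34.5 kb. By comparison, forward 14 with reverse 10 gave 10955 and 9916 at 13.2 kb, and forward 18 with reverse 10 gave 6655 and 7051 at 24.8 kb. Fragment length moved with the inside level of these fragments, and its part in it was not tested.

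**Figure D1:**
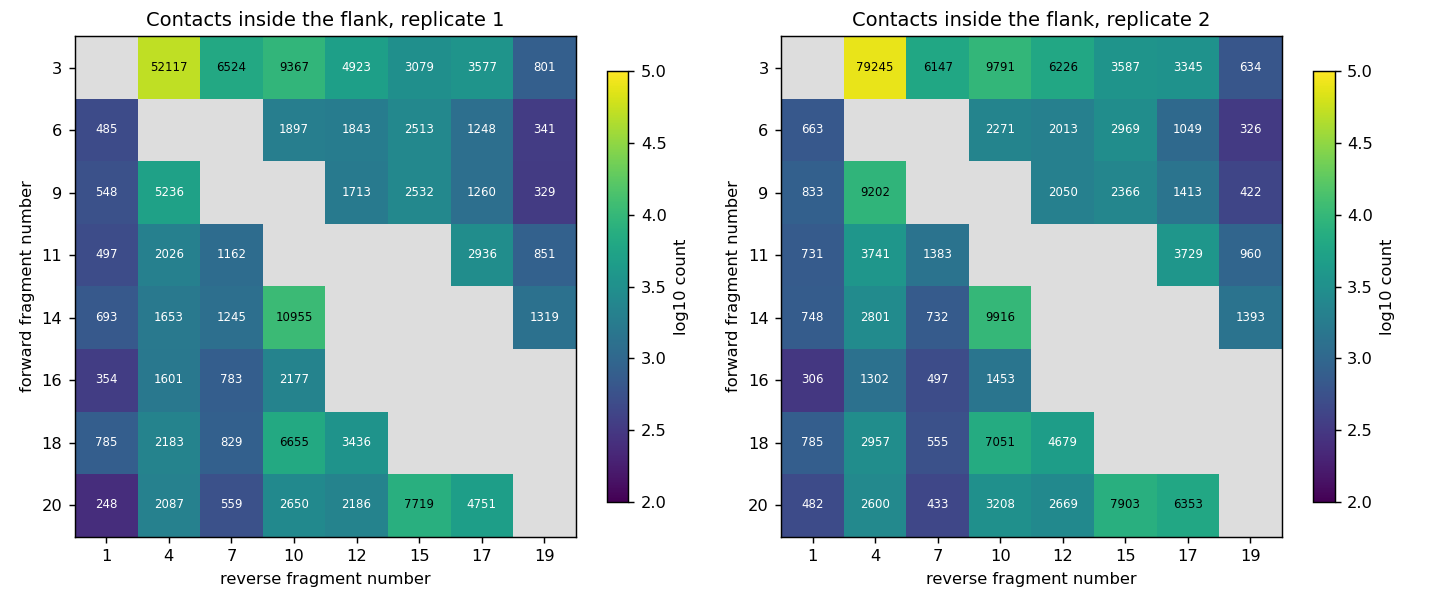
Counts of the 45 inside pairs, with forward fragment numbers on the vertical and reverse fragment numbers on the horizontal axis, 1 panel per replicate and colour for log10 count; grey cells are pairs under 10 kb apart. The columns of reverse 1 and reverse 19 are dark in both panels, and forward 3 with reverse 4 is brightest with 52117 and 79245 counts.

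Counts were lower at longer distances on both sides of the 3′ end. The slope of log10 count on log10 distance was -1.22 ± 0.039 (SD, n = 2 replicates) inside the flank and -1.07 ± 0.11 for the 518 crossing pairs under 1 Mb. Pairs among fragments 36 and above had slopes of -0.92 and -0.82 over the distances found inside the flank and -0.78 and -0.90 under 1 Mb. Beyond 1 Mb the crossing counts stopped decreasing, with a slope of 0.41 ± 0.11 over 922 pairs. The median crossing count was 387.5 and 339.5 at 80 to 160 kb, 173 and 159 at 160 to 320 kb, 62.5 and 78 at 320 to 640 kb, and 39 and 48 at 640 to 1280 kb. It was 46 and 49 at 1280 to 2560 kb and 75 and 68.5 beyond that, so the flank's median count with the far end of the probed span exceeded that near 1 Mb in both replicates. This was not particular to the flank. Pairs of fragments 21 to 35 with 36 and above rose from 40 and 81.5 at 640 to 1280 kb to 59.5 and 96.5 beyond 2560 kb. Pairs among fragments 36 and above went from 25 and 52 to 51 and 46, a rise in replicate 1 only. Distances beyond 2900 kb came almost only from the flank, which supplied 98.2% of the 112 pairs there.

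**Figure D2:**
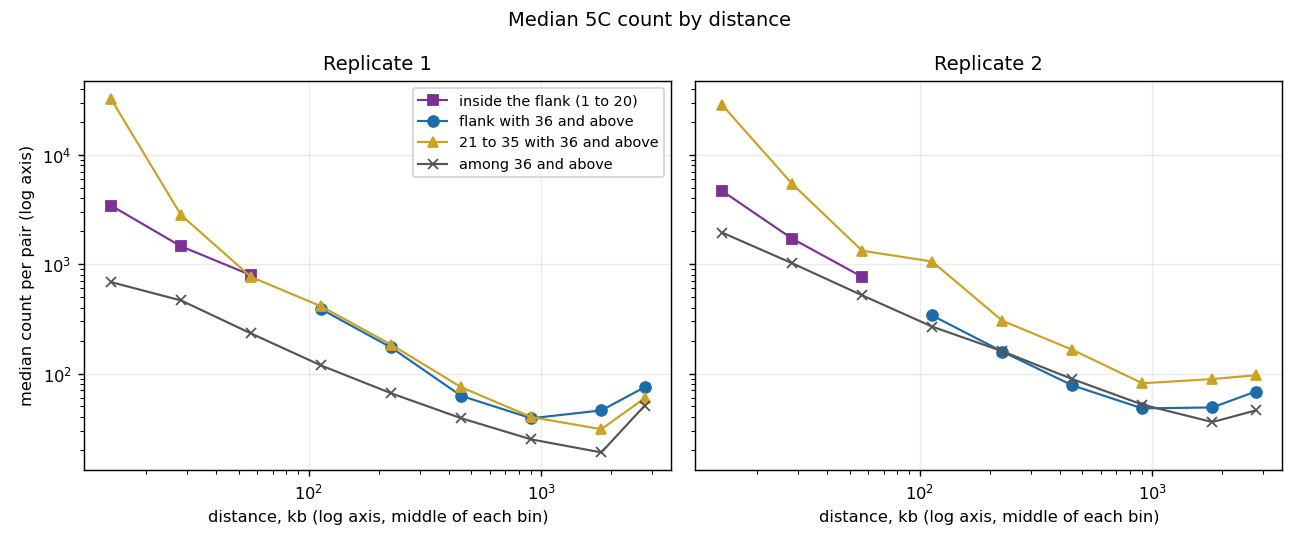
Median count of inside pairs, crossing pairs, pairs of fragments 21 to 35 with 36 and above and pairs among fragments 36 and above by distance bin in kb, both axes logarithmic, with 1 panel per replicate. The inside medians run from 3436 to 793 in replicate 1, and the crossing medians reach their lowest value, 39 in replicate 1 and 48 in replicate 2, at 640 to 1280 kb.

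At a given distance, inside pairs held more counts than pairs among fragments 36 and above. The 11 inside pairs at 10 to 20 kb had median counts of 3436 and 4679. These were 5.01 and 2.40 times the medians of the 96 pairs among fragments 36 and above at that distance. At 20 to 40 kb the factors were 3.13 and 1.68, and at 40 to 80 kb they were 3.41 and 1.48. The direction was shared by both replicates in all 3 bins, and the factor was larger in replicate 1. This excess was not particular to the flank. Pairs of fragments 21 to 35 with 36 and above had factors of 47.5 and 14.7 at 10 to 20 kb (3 pairs). They had 6.04 and 5.32 at 20 to 40 kb and 3.29 and 2.56 at 40 to 80 kb. For crossing pairs the factor was 3.27 and 1.26 at 80 to 160 kb, and in replicate 2 it was under 1 in the 3 bins from 160 to 1280 kb (0.994, 0.876 and 0.923), where replicate 1 gave 2.62, 1.60 and 1.56. From 1280 to 2560 kb it was 2.42 and 1.36, above 1 in both. Correction for primer coverage divides each value by the mean level of its forward and its reverse primer. So corrected, crossing pairs at 80 to 160 kb were below pairs among fragments 36 and above, at 0.234 and 0.308 against 0.358 and 0.438. The corrected inside values were 0.453 and 0.713 against 0.347 and 0.442 at 10 to 20 kb, and 0.371 and 0.492 against 0.283 and 0.310 at 40 to 80 kb. At 20 to 40 kb they were 0.339 and 0.521 against 0.338 and 0.366, so replicate 1 showed no difference there. Crossing pairs just past the 3′ end were thus higher in raw counts and lower after correction, and no direction is drawn for them.

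To compare inside with crossing contacts across distances, each count was divided by the expected count, the value of a smooth curve of counts on distance fitted over all 10415 pairs in the same replicate. The curve follows the mean, and a few pairs hold very high counts, so the median ratio over all pairs was 0.357 and 0.404. Against this curve the 45 inside pairs had a median ratio of 0.529 and 0.252, and the 425 pairs among fragments 36 and above at the same distances had 0.136 and 0.154. Inside pairs were also the higher of these with the curve fitted on log2 counts (3.21 and 1.49 against 0.848 and 0.826) and with primer correction (0.371 and 0.521 against 0.307 and 0.340). The median ratio of 0.390 ± 0.196 (SD, n = 2) inside the flank compares with 0.605 and 0.462 for crossing pairs (0.533 ± 0.101). Inside minus crossing was -0.19 and -0.88 on the log2 scale (-0.53 ± 0.48), so inside contacts lay below crossing contacts relative to this curve in both replicates, but above them, by 0.82 and 0.54, when the curve was fitted on log2 counts. The mean over replicates barely exceeded their spread, and 2 replicates cannot give a two-sided exact sign-flip p below 0.5. The comparison thus depends on the curve and has no settled direction relative to it. Over pairs among fragments 36 and above at the same distances, the log2 excess of inside pairs was 1.96 and 0.71. Over the 7431 such pairs from the shortest crossing distance on, that of crossing pairs was 0.99 and 0.27. With log2 counts these were 1.92 and 0.85 against 0.93 and 0.19, and with primer correction 0.28 and 0.62 against 0.17 and 0.20. The inside excess was larger each time in both replicates, but the 7431 pairs were not matched by bin. With primer correction the median was 0.845 and 0.885 across the 3′ end, and inside minus crossing was -1.19 and -0.76.

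A comparison at like distances needs no curve. Between 55 and 110 kb, the 5 inside pairs (median distance 61.1 kb) had median counts of 785 and 634, and the 13 crossing pairs (median 101.9 kb) had 383 and 305. The 47 pairs that join the flank to fragments 21 to 35, the interval left out by the rule (median 82.6 kb), lay between them at 521 and 560. The 297 pairs among fragments 36 and above (median 82.5 kb) had 164 and 369. The 3 flank classes ranked by distance in both replicates, and the distances differ, so no step at the 3′ end can be read from them. The counts also overlapped widely, from 248 to 2087 inside and from 127 to 1527 across the end in replicate 1.

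Single flank fragments differed more than the 2 classes did. Reverse 15 (chr12:114395287-114399192) held the highest crossing level, a mean ratio of 1.86 and 1.24 over its 85 crossing pairs (1.55 ± 0.436), with 21420 and 19351 counts. Forward 3 followed with 1.57 and 1.17 (1.37 ± 0.282), and forward 18 (chr12:114404465-114408145) with 1.37 and 1.11 (1.24 ± 0.181). Within their spread these 3 were not distinct. Forward 18 owed its place to 1 pair, with reverse 831, described below: without it, a setting chosen after the values were seen, its mean was 1.03 and 0.729. By median ratio reverse 10 (1.19 and 0.727) lay above forward 18 (0.793 and 0.597). The lowest levels belonged to reverse 7 (chr12:114367390-114368951) with 0.490 and 0.326 (0.408 ± 0.116), reverse 1 (chr12:114339456-114341053) with 0.491 and 0.423 (0.457 ± 0.0482) and forward 9 (chr12:114372427-114375777) with 0.545 and 0.470 (0.507 ± 0.0533). Both replicates of reverse 15 and forward 3 exceeded both replicates of each of the 3 lowest, by mean and by median ratio. The fragments were picked as highest and lowest by these same mean ratios, so their separation was partly fixed by the choice.

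The order of the fragments was similar in both libraries, with a Spearman correlation of 0.847 between replicates over the 16 median ratios. Those medians ran from 0.361 to 1.75 in replicate 1 and from 0.251 to 0.960 in replicate 2, and 15 of 16 fragments were lower in replicate 2. Reverse 4 was the exception, at 0.578 and 0.609. Fragments high across the 3′ end also tended to be high inside the flank (correlation 0.682 of mean ratios, n = 16). Long fragments had higher crossing levels (correlation 0.615 with length), whereas position in the flank tracked the level less (0.276 with fragment number). Corrected for primer coverage, the medians of reverse 15, forward 3 and forward 18 were 0.944 and 0.906, 0.860 and 0.877, and 0.819 and 0.826. Those of reverse 7, reverse 1 and forward 9 were 0.701 and 0.895, 0.748 and 0.850, and 0.770 and 0.831. The correction sets each primer's mean ratio to the same level by construction, so only the distribution of a fragment's contacts is left in the corrected values.

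**Figure D3:**
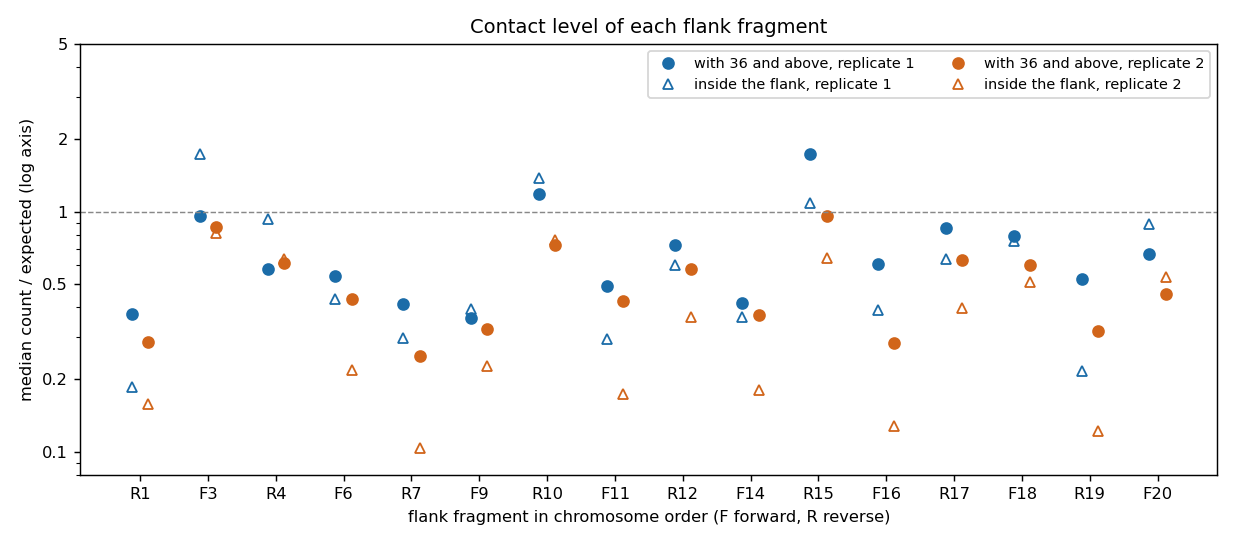
Median ratio of observed over expected count for each of the 16 flank fragments in order along the chromosome, for crossing and for inside pairs, with points for replicates 1 and 2 on a logarithmic axis. Reverse 15 is highest for crossing pairs in both replicates, at 1.75 and 0.960, and replicate 2 lies below replicate 1 for 15 of 16 fragments.

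Few flank contacts were called above the level of their distance, and few of all pairs were. A pair was called when the adjusted p (q, Weibull upper tail over all 10415 pairs with Benjamini-Hochberg adjustment) was under 0.01 in both replicates, and 1 of 1485 flank pairs was called (0.0673%), against a background of 0.24% of all pairs tested (25 of 10415). In replicate 1 alone 3 flank pairs were called (background 0.432%), and in replicate 2 alone 1 was (background 0.374%). No inside pair was called, although 1, forward 3 with reverse 4, had an unadjusted p under 0.05 in both replicates. The spread of counts is wide at short distances. That pair, at 10.2 and 7.60 times expected, lay only 2.59 and 1.06 SDs above the curve. The lack of inside calls is therefore not read as a trait of the flank. At an unadjusted p under 0.05 in both replicates 6 flank pairs (0.404%) passed, against a background of 1.6%. After primer correction 4 flank pairs (0.269%) were called in both replicates, against 0.307% of all pairs. Each of these shares lay below its background, but they rest on 1 to 6 flank pairs. No lack of raised contacts in the flank is drawn from them. Ratios above 1 in both replicates made up 14.4% of crossing pairs against 15.7% of all pairs. After correction they made up 25.2% against 20.3%.

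The called pair joined forward 18 with reverse 831 (chr12:117305833-117307899), which lie 2901 kb apart at opposite ends of the probed span. It held 3475 and 3562 counts where the curve gave 103.9 and 95.4, a ratio of 33.5 and 37.4 (35.4 ± 2.75, SD, n = 2; q = 2.25e-14 and 7.92e-12). After primer correction the ratio was 13.5 and 23.2 (q = 3.28e-05 and 1.91e-11), and with a curve fitted without any flank pair it was 36.8 and 37.2. With the curve fitted on log2 counts the call was lost, with q of 0.450 and 3.51e-04, and no pair of the 10415 was called in both replicates on that scale. The uncorrected ratios of the replicates were close, and the corrected ratios were less so. Its neighbours lay near the level of their distance. Forward 16 with reverse 831 gave 154 and 88 counts, forward 20 with reverse 831 gave 106 and 149, forward 18 with reverse 827 gave 96 and 53, and forward 18 with reverse 834 gave 86 and 84. The contact thus rested on a single fragment at each end. It made up 75.3% and 79.7% of the counts that reverse 831 shared with the flank, and 10.96% and 10.7% of the flank contacts of forward 18.

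The other flank pairs called in replicate 1 did not pass in replicate 2. Forward 16 (chr12:114399193-114400223) with reverse 208 (chr12:115148612-115152740), 751 kb apart, held 1308 and 858 counts, a ratio of 19.8 and 7.61 with q of 2.45e-10 and 0.329. Its corrected ratio of 7.86 and 11.9 was called in both replicates. The neighbouring fragments forward 14 and forward 18 gave 87 and 112 and 160 and 118 counts with reverse 208, so among these 3 the count was by far the highest with forward 16. On the other side, forward 16 gave 20 and 11 counts with reverse 192 and 20 and 21 with reverse 231. Without this pair, a setting chosen after the values were seen, reverse 208 still had a mean ratio of 2.22 and 1.22 over its other 7 flank pairs. Forward 3 with reverse 845 (chr12:117334454-117337990), 2989 kb apart, held 2167 and 1100 counts, with ratios of 20.1 and 11.5 and q of 6.72e-08 and 0.048. Corrected, its ratio was 6.30 and 5.65 and it was not called. When the expected curve was fitted without the called pairs, a setting chosen after the values were seen, forward 3 with reverse 845 was called as well, with ratios of 22.6 and 13.6 and q of 1.05e-04 and 4.24e-04. The background was then 0.23% of all pairs.

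The other 2 pairs called after primer correction had modest counts. Forward 14 with reverse 342, 1226 kb apart, held 133 and 91 counts, or 2.13 and 1.08 times expected before correction and 8.92 and 7.21 times after it. Forward 436 with reverse 1, 1543 kb apart, held 240 and 396 counts, 3.85 and 4.42 times expected before and 14.4 and 8.66 after. Neither reached the call in uncorrected counts. Of the remaining pairs among the 10 with the highest mean z (the residual over the SD of its distance), forward 272 with reverse 15 held 238 and 297 counts (4.03 and 3.57 times expected) and forward 16 with reverse 235 held 172 and 318 (2.84 and 3.34). Forward 3 with reverse 840 held 592 and 280 counts, forward 3 with reverse 208 held 265 and 173, forward 346 with reverse 15 held 287 and 176, and forward 3 with reverse 235 held 159 and 267. Forward 3 and reverse 15, the fragments with the highest crossing levels, entered 7 of these 10 pairs.

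Ratios above 2 in both replicates were found for 36 of 1440 crossing pairs (2.5%) and for 594 of all 10415 pairs (5.70%). Of the 36, 10 belonged to reverse 15, 8 to forward 3 and 8 to reverse 10. Above 5 in both replicates there were 4 flank pairs (0.269%), of which 3 crossed the 3′ end, against 111 of all pairs (1.07%).

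**Figure D4:**
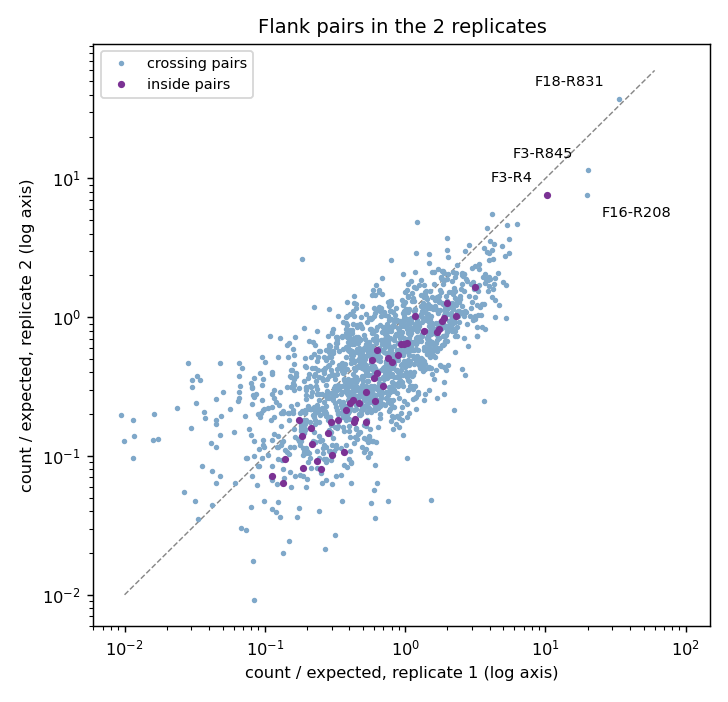
Ratio of observed over expected count in replicate 2 against replicate 1 for crossing pairs above 0 in both replicates and the 45 inside pairs, both axes logarithmic; the dashed line marks equal ratios. Forward 18 with reverse 831 stands at 33.5 and 37.4, and forward 16 with reverse 208 and forward 3 with reverse 845 lie below it at 19.8 and 7.61 and at 20.1 and 11.5.

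Across the locus, crossing contacts were taken over 5 parts of equal length (602.1 kb), numbered from the flank toward the far end. The median crossing ratio was 0.495 and 0.271 in part 1 (368 pairs), 0.605 and 0.427 in part 2 (224), 0.698 and 0.569 in part 3 (368), 0.769 and 0.636 in part 4 (208) and 0.610 and 0.584 in part 5 (272). In both replicates part 1, which also holds the flank itself, was lowest and part 4 was highest. Ratios above 2 in both replicates made up 0.543% of crossing pairs to part 1 and 4.81% of those to part 4. After primer correction part 1 was again the lowest, at 0.529 and 0.545, and parts 2 and 3 were the highest, at 1.10 and 1.07 and at 1.11 and 1.15, while part 4 had 0.705 and 0.746. Relative to the curve, the level toward part 1 was thus the lowest before and after correction, and that toward part 4 was not high after it. In raw counts, crossing pairs held 3.27 and 1.26 times the median of pairs among fragments 36 and above at 80 to 160 kb. At 640 to 1280 kb the factor was 1.56 and 0.923, so the nearest bin was not the lowest on that measure. After correction crossing pairs at 80 to 160 kb had 0.234 and 0.308, below those pairs. Low corrected levels at short distances were shared by pairs among fragments 36 and above, at 0.358 and 0.438 at 80 to 160 kb and 0.494 and 0.622 at 160 to 320 kb, against 0.948 and 1.02 at 640 to 1280 kb. Fragments 21 to 35 had corrected medians of 0.671 and 0.643 with part 1, 0.804 and 0.772 with part 2, 0.984 and 1.09 with part 3, 0.551 and 0.658 with part 4 and 0.510 and 0.744 with part 5, so their order also peaked at part 3.

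Partner by partner, the flank profile repeated between replicates with a Spearman correlation of 0.793 over the 180 partner medians, and of 0.652 after primer correction. The corrected median was above 1 in both replicates for 54 partners, of which 26 lay in part 3 and 4 in part 1. It was below 1 in both for 37 of the 46 partners in part 1. The 5 partners with the highest mean ratio were reverse 831, at 5.54 and 5.85 (5.70 ± 0.220), reverse 208, at 4.42 and 2.02 (3.22 ± 1.70), forward 556 (chr12:116385510-116386658), at 2.54 and 3.12 (2.83 ± 0.408), reverse 845, at 3.17 and 2.05 (2.61 ± 0.792), and forward 501 (chr12:116168801-116169973), at 2.40 and 2.20 (2.30 ± 0.144). Without the single pairs described above, a setting chosen after the values were seen, the mean over the other 7 pairs was 1.55 and 1.35 for reverse 831, 0.752 and 0.705 for reverse 845 and 2.22 and 1.22 for reverse 208. The means of reverse 831 and reverse 845 thus rested largely on 1 pair, whereas reverse 208 had a median of 2.35 and 1.31 over its 8 flank pairs. Forward 556 was high over several flank fragments, with a median of 1.61 and 3.34, but its corrected median was 0.572 and 0.551.

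**Figure D5:**
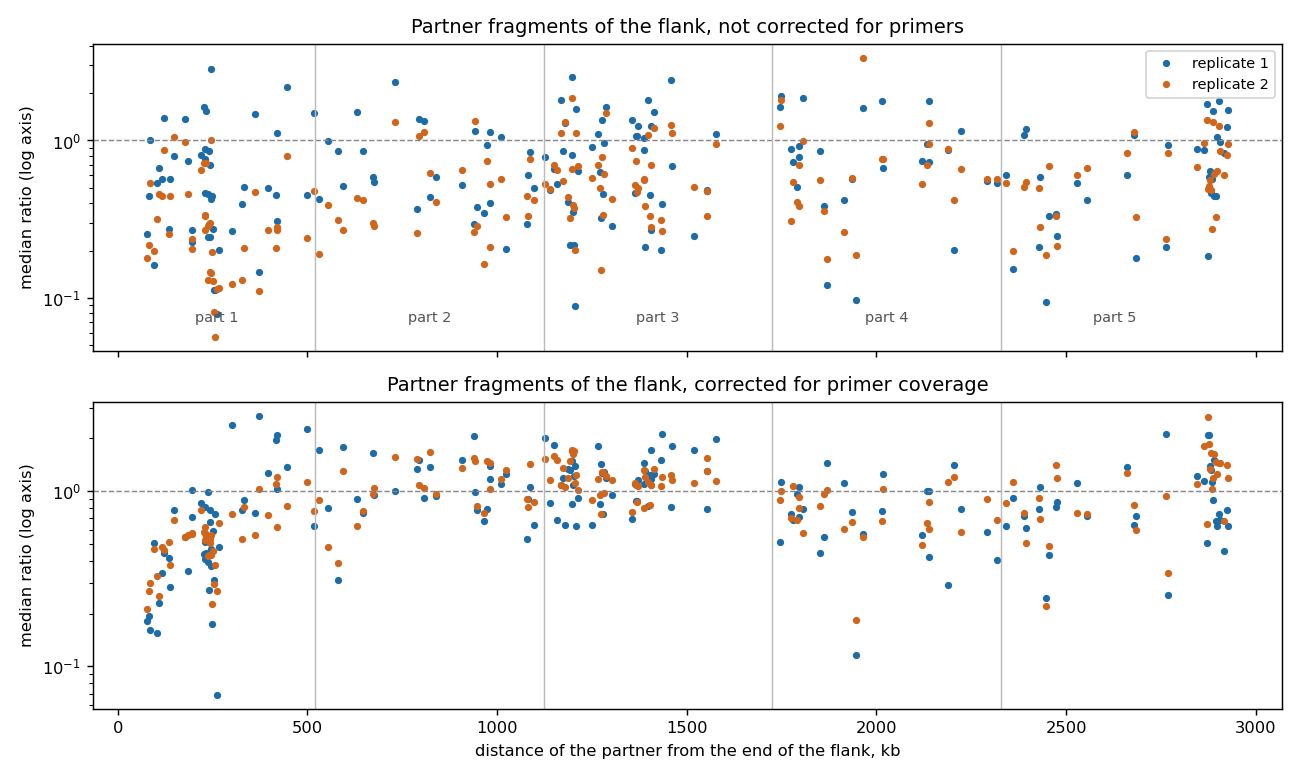
Median ratio of observed over expected count between the flank and each of the 180 partner fragments, against the distance of the partner from the end of the flank in kb, before (top) and after (bottom) primer correction, on logarithmic axes with points for replicates 1 and 2 and lines at the limits of the 5 parts. Over pairs the level is lowest in part 1 in both panels, at 0.495 and 0.271 before and 0.529 and 0.545 after correction.

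Fragments 21 to 35 lie between the flank and the partners and faced the same partners from closer by. Of their pairs 3, 9 and 25 fell at 10 to 20, 20 to 40 and 40 to 80 kb, where the flank has no crossing pair, and the ratio to the expected count is the only adjustment for this. Their 898 pairs had a median ratio of 0.542 and 0.838, against 0.605 and 0.462 for the flank, so the difference was 0.16 in replicate 1 and -0.86 in replicate 2. The replicates had opposite signs, and the medians did not separate the 2 sets. The means did, at 1.77 and 1.75 for fragments 21 to 35 and 0.958 and 0.676 for the flank. Calls among the 898 pairs numbered 4 (0.445%), against 1 (0.0673%) for the flank and 0.24% of all pairs tested. Ratios above 1 in both replicates were found for 284 of the 898 (31.6%), against 208 (14.4%) of the flank's 1440 and 15.7% of all pairs tested. After primer correction neither contrast remained. That correction sets each primer's mean ratio to the same level by construction. It therefore takes out level differences between sets of fragments and cannot test them. Calls were then 3 (0.334%) and 4 for the flank (0.269%), against 0.307% of all pairs. Shares above 1 were 23.2% and 25.2% for the flank's crossing pairs, against 20.3% of all pairs. Fragments 23 to 25 moved with the difference between replicates. Forward 23 held 2069 and 8801 crossing counts, reverse 24 held 1391 and 5952 and forward 25 held 4579 and 14092. Without these 3 fragments, a setting chosen after the values were seen, the flank lay below fragments 21 to 35 by 0.80 and 1.41 on the log2 scale in replicates 1 and 2. After primer correction the flank was higher instead, by 0.22 and 0.15, so no direction is drawn.

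Reverse 81 (chr12:114664824-114667095), chosen after its values were seen, is a partner at which the 2 sets of pairs differed. Its median ratio was 2.84 and 1.01 over 8 flank pairs and 34.6 and 30.5 with fragments 21 to 35. Forward 20, the flank fragment nearest to the locus, gave 652 and 466 counts with it. The difference at reverse 81 was more than 10-fold in both replicates before correction, and the flank's corrected median was 0.374 and 0.434. Every partner from forward 68 to forward 84 had the higher uncorrected median with fragments 21 to 35 in both replicates. Reverse 75 had 1.54 and 0.723 with the flank against 9.30 and 7.44, and reverse 70 had 1.64 and 0.715 against 6.11 and 4.42.

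The fragments next to the limits of the rule differed in both directions. With partners 36 and above, reverse 19 and forward 20, just inside, had median ratios of 0.526 and 0.317 and of 0.664 and 0.452. Reverse 22 and forward 23, just outside, had 0.287 and 0.813 and 0.0537 and 0.314. At the other end of the interval left out, forward 34 had 0.644 and 0.779 and reverse 35 had 1.72 and 1.27. Toward the flank, reverse 35 had 0.610 and 0.221, and forward 36 and reverse 37, the first partners taken in, had 0.253 and 0.178 and 0.447 and 0.217. The nearest pair left out by the 10 kb minimum was forward 18 with reverse 15, at 9.07 kb, with 32857 and 36146 counts, and the nearest taken in was forward 3 with reverse 4.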

How the data were processed

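The authors deposited 1 matrix of 5C counts per replicate, whole numbers of sequenced junctions per primer pair. Per the submitters' processing notes Novoalign and build mm9 were used, and per the file headers the matrices passed a step named transpurge. Versions are not given in the sources used here. Gene desert pairs were not analysed here.

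Expected counts and SDs came from lowess curves (span 0.3) of counts and squared residuals on log10 distance per replicate, with a floor of 1 for each. The z was shifted and fitted with a Weibull distribution, and q followed by Benjamini-Hochberg over 10415 pairs. Primer correction divided ratios in 50 rounds by the mean of each primer. Levels are medians, with mean and SD over 2 replicates. Procedures were run on simulated counts with known raised pairs, and no result above rests on that run.

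Named are called pairs, the 10 pairs with the highest mean z, the 3 highest and 3 lowest flank fragments and inside pairs, the 5 highest partners, and items next to the rule's limits. The members and lists were chosen with earlier results of these data known. Alternatives changed the span, scale, curve, primer correction, thresholds, limits, summary and replicate. Lowess came from statsmodels 0.14.6 and the Weibull fit from SciPy 1.17.1, run with NumPy 2.4.6 under Python 3.11.15. Figures used matplotlib 3.10.9.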

Additional observations from a re-analysis of the deposited data

How the results depend on the processing

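The inside level (log2 of the median ratio, -1.45 mean over replicates) was 1.13 with a curve on log2(count + 1), added after the data were seen, and -0.41 as a mean of ratios. The crossing level (-0.92) was 0.45, -0.31 and, with primer correction, -0.21. Inside minus crossing (-0.53) was 0.68 on the log2 curve, and below 0 in the other 13 of 14 alternatives, in both replicates in 8 of the 12 that hold both. It was -0.10 with flank fragments 1 to 15. Flank minus fragments 21 to 35 (-0.35) was -1.13 as a mean of ratios, -1.10 without fragments 23 to 25 (also added after the data were seen) and 0.19 with primer correction. Leaving out either replicate gave -1.99 to -0.92, -1.11 to -0.73, -0.88 to -0.19 and -0.86 to 0.16 for these 4 results. The count of called flank pairs (1) was 4 with primer correction and 1 to 3 with a single replicate. It was 2 with the curve fitted without called pairs, added after the data were seen. On the log2 curve it was 0, as for all 10415 pairs. There 10 of 1485 flank pairs had an unadjusted p under 0.05 in both replicates. The share of all pairs at that level on this scale is not given here, so the 10 are not read as many or few. With flank fragments 1 to 15, which leaves forward 18 out, the count called was 0. Of those 1005 pairs 3 had such an unadjusted p on the count scale, against 1.6% of all pairs. The cause of each change was not tested beyond that. The curve fitted without flank pairs gave no value for 95 pairs. No paired analysis was possible because there is 1 group of 2 replicates and nothing to pair it with. The 2 replicates limit every mean, and crossing medians near 60 counts limit single pairs.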

Other observations

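Pairs outside the rule also involved the flank. The 80 pairs that join it to fragments 21 to 35 held 0.325% and 0.370% of all counts in replicates 1 and 2, with median counts of 407.5 and 493.5 and median ratios of 0.312 and 0.221. Their counts did not decrease steadily with distance. Reverse 22 (chr12:114434637-114441221), the nearest, had median counts of 877 and 1659 over its 8 flank pairs. Reverse 24 (chr12:114447061-114449887) had 71.5 and 259, whereas forward 28 (chr12:114465909-114474052), farther from the flank, had 900 and 1875, and reverse 33 (chr12:114486613-114491122), farther still, had 1319.5 and 1088.5. After primer correction the nearest fragments were the highest, with median ratios of 0.6004 and 0.417 for reverse 22 and 0.551 and 0.528 for forward 23, against 0.171 and 0.182 for reverse 33. Forward 3 held 1465 and 3236 counts with reverse 22, 106 and 462 with reverse 24, 205 and 182 with reverse 29 and 1164 and 1194 with reverse 33. With reverse 44, 195.9 kb away and beyond the interval, it held 2057 and 2185, more than with reverse 19 inside the flank (801 and 634). The 19 inside pairs under 10 kb apart held 15.3% and 9.42% of all counts.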
